A study of Mus musculus with 4 samples.

Results

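The nuclear genes for the subunits of the oxidative phosphorylation complexes were read from the liver transcriptomes of 4 male mice. The members were chosen by symbol, as the genes named Ndufa, Ndufb, Ndufc, Ndufs or Ndufv with a digit, Sdha to Sdhd, Uqcr, Cox4i, Cox5, Cox6, Cox7, Cox8 and Atp5. Of the 46603 genes in the table, 94 carried such a symbol, and 10 processed pseudogenes were left out. The 84 members comprised 37 genes of complex I, 4 of complex II, 8 of complex III, 18 of complex IV and 17 of complex V, spread over 19 chromosomes.

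All 4 mice were C57BL/6 J HuRflox/flox animals kept for 4 weeks on a Western diet plus sugar water (WDSW), in which fat supplied 42% of the calories, cholesterol made up 0.1% and the drink held 23.1 g/L fructose and 18.9 g/L glucose. Mice 1 and 2 were controls that had received AAV8-TBGP-GFP, and mice 3 and 4 were labelled HuRhKO, that is, hepatocyte-specific HuR knockout mice made by tail-vein injection of AAV8-TBGP-Cre. The thyroxine-binding globulin promoter (TBGP) is active in hepatocytes, so other liver cells are not targeted, and every mouse carried the floxed allele and a viral vector. The ages were not given in the sources used here. HuR, encoded by Elavl1, is an RNA-binding protein that regulates coding and noncoding transcripts, mostly through AU-rich elements.

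Oxidative phosphorylation takes place in the inner mitochondrial membrane. Complex I (NADH dehydrogenase) and complex II (succinate dehydrogenase) feed electrons into ubiquinone, complex III (cytochrome bc1) passes them to cytochrome c, and complex IV (cytochrome c oxidase) passes them to oxygen, while complex V (ATP synthase) uses the resulting proton gradient to make ATP. Most subunits are made from nuclear genes and imported, the core of complexes I, III, IV and V also includes subunits encoded by mitochondrial DNA, and complex II is wholly nuclear. Hepatocytes hold many mitochondria and use them for fatty acid oxidation, gluconeogenesis and the urea cycle.

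The total counts were between 13032095 and 13806773 in mice 1 to 3 and reached 19715577 in mouse 4. Levels are given as CPM, counts per 1000000 counts on library sizes scaled with TMM factors, and as CPM per kb where genes are compared with each other. The counts of Elavl1 were 377 (mouse 1), 347 (mouse 2), 541 (mouse 3) and 648 (mouse 4), a log2 fold change of 0.41 (95% interval 0.099 to 0.72, unadjusted p = 0.016 and adjusted p = 0.545 by edgeR's quasi-likelihood test). The targeted gene was thus higher in both libraries labelled HuRhKO than in both controls, which goes against the label, and every direction below is that of the labels. The paper that reported these mice describes less HuR mRNA and protein in HuRhKO livers, and loss of HuR from hepatocytes by immunofluorescence. Gene counts from whole liver include other cells and do not single out the floxed part of Elavl1. The cause of the difference was not tested. Hepatocyte markers such as Alb and Ttr summed to between 62925 and 71136 CPM in every library, which fits the liver label. The 8 markers of striated muscle summed to at most 3 counts in a library, and the 5 markers of testis germ cells were at 0 in all libraries. Erythroid markers were at 275, 329, 370 and 530 CPM in mice 1, 2, 3 and 4. Of these 4 genes, 3 had an unadjusted p under 0.05 by edgeR's test, all higher in the libraries labelled HuRhKO. Over all genes tested, 7.43% were under this threshold, and the smallest adjusted p of the erythroid genes was 0.444 by the same test. The 5 endothelial markers were all higher in the fit (159, 143, 184 and 169 CPM in sum, 0 at an unadjusted p under 0.05). Col3a1 of the stellate list, Spp1 of the cholangiocyte list and Fabp4, the 1 white fat marker tested, were also higher. Each had an unadjusted p under 0.05 and an adjusted p between 0.522 and 0.579 by edgeR's test. The stellate and cholangiocyte lists were mixed, with 4 of 5 and 2 of 4 tested markers higher. Des was lower at -0.30, Epcam at -0.56 and Krt19 at -2.38 on the log2 scale. Mouse 1 stood apart in Krt19 and Krt7, cholangiocyte keratins, with 162 and 35 counts against at most 34 and 13 in the other mice. The part of these cells in the pattern of the subunits was not tested. In liver tissue, fewer cells of a type and less RNA per cell cannot be told apart.

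Nearly all subunit genes were expressed at a high level in these livers. The median member tested had 171 CPM per kb, against 5.06 CPM per kb over the 13001 genes kept by the filter on low counts. The filter kept 78 of the 84 members, and 75 of them had a mean of at least 10 CPM, with means from 34.9 to 1131 CPM. The medians per complex were 135 CPM per kb for complex I, 161 for complex II, 240 for complex III, 267 for complex IV and 256 for complex V. Complexes III, IV and V thus stood above complexes I and II on this scale, which is a description of 4 libraries and was not tested.

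Within a complex, members of the same enzyme differed severalfold in mRNA per length. Among the members of complex I with at least 10 CPM, the level ran from 31.4 CPM per kb for Ndufs4, an accessory subunit, to 476 CPM per kb for Ndufa4, a range of 15.2-fold. Ndufa4 is named after complex I but is now placed in complex IV. The range was 8.27-fold in complex IV, from Cox7a2l to Cox4i1 at 753 CPM per kb, and 3.97-fold in complex V, from Atp5g2 to Atp5g3 at 655 CPM per kb. It was 3.63-fold in complex II and 3.36-fold in complex III, where Uqcr11 had the highest level at 385 CPM per kb. The other members among the 3 highest of their complex were Ndufb9 (292 CPM per kb) and Ndufa6 (269) in complex I, both small accessory proteins, Uqcrb (274) and Uqcrq (267) in complex III, Cox6a1 (597) and Cox6c (458) in complex IV, and Atp5b (590) and Atp5a1 (427), the catalytic beta and the alpha subunit of the F1 head, in complex V.

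**Figure D1:**
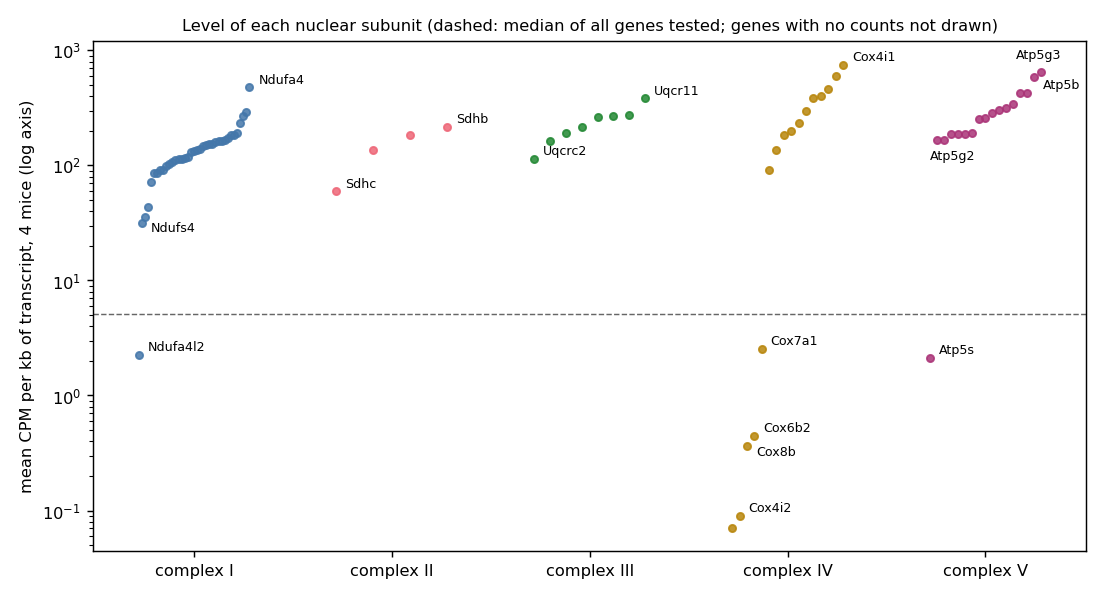
Mean level of each nuclear subunit over the 4 mice, in CPM per kb of transcript on a log axis, with 1 point per gene ordered by level within each complex; the dashed line is the median of all genes tested. Most members lie above the dashed line of 5.06 CPM per kb, and the points below it are the low isoforms of complex IV, Ndufa4l2 and Atp5s.

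The subunits that exist as tissue isoforms showed the liver pattern in all 4 mice. Cox4i1, the ubiquitous form of subunit 4, had 6128, 7767, 7979 and 12200 counts in mice 1 to 4, while Cox4i2, the form known from lung and hypoxic cells, had 0, 0, 3 and 1. Cox6a1 had between 3890 and 7012 counts, and Cox6a2, the heart and skeletal muscle form, had 0, 0, 2 and 1. Cox8a had between 2560 and 4474 counts, and Cox8b, another muscle form, had between 1 and 3. The muscle forms were therefore at or near 0 together with the muscle markers.

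The forms known from testis were likewise nearly absent. Cox6b1 had between 1974 and 4047 counts and Cox6b2 had 4, 0, 6 and 1. Cox7b had between 1579 and 3014 counts, and Cox7b2 was not detected in any library, like Cox8c, for which a count of 0 allows up to 3 counts, or 0.152 to 0.23 CPM. These 6 genes, Cox4i2, Cox6a2, Cox6b2, Cox7b2, Cox8b and Cox8c, are the members that the filter removed, and they entered no test. Such a limit covers counting error and no other source of error.

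Among the low isoforms that were tested, Cox7a1, the muscle form of subunit 7a, had 12, 10, 21 and 17 counts against 1337, 1726, 1664 and 2686 for Cox7a2, its liver form. Ndufa4l2, a relative of Ndufa4 known to respond to hypoxia, had 18, 39, 23 and 48 counts against 3412, 4155, 3820 and 6199 for Ndufa4. Exons of Ndufa4l2 overlap those of Shmt2 on the opposite strand, which had up to 6080 counts, and the sources do not say whether reads were counted by strand. The membrane ring of ATP synthase is built from subunit c, which Atp5g1, Atp5g2 and Atp5g3 all encode with the same mature sequence. Per length, Atp5g3 held between 53.9% and 59.2% of the summed level of these genes in a library, Atp5g1 between 27.1% and 30.6%, and Atp5g2 between 13.6% and 15.5%. The order of the c genes was thus the same in every mouse.

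The members moved together from mouse to mouse, but not by label. The summed level of all 84 genes was 12551 CPM in mouse 1, 14700 CPM in mouse 2, 13551 CPM in mouse 3 and 16015 CPM in mouse 4. The 2 mice labelled HuRhKO therefore lay on either side of control mouse 2, and their mean was 1.08 times that of the controls. Each complex repeated this order of mice 1, 3, 2 and 4. Complex I had summed levels of 3404, 4127, 3700 and 4516 CPM in mice 1 to 4. Complex III had 1417, 1771, 1653 and 2001 CPM, and complex IV had 2108, 2598, 2284 and 2717 CPM. Complex V had 4543, 5061, 4802 and 5546 CPM, and complex II, which varied least, had 1079, 1145, 1111 and 1235 CPM.

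The makeup of the set hardly moved. Complex V took between 34.4% and 36.2% of the summed CPM of the set in a library, complex I between 27.1% and 28.2%, complex IV between 16.8% and 17.7%, complex III between 11.3% and 12.5%, and complex II between 7.71% and 8.6%.

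Gene by gene, mouse 1 was the lowest library for 63 of the 78 members tested, against 28.1% of all genes tested. Mouse 4 was the highest for 66 members, against 26.6% of all genes. Both held for 57 members, against a background of 13.7%, and the full order of mice 1, 3, 2 and 4 was seen in 49 members, against 7.08%. The median deviation of the members from their own mean over the 4 mice was -0.19 in mouse 1, 0.077 in mouse 2, -0.09 in mouse 3 and 0.21 in mouse 4 on the log2 scale. The gap between mice of the same label was larger than the difference between the labels. Control mouse 2 was above control mouse 1 by a median of 0.27, and mouse 4 was above mouse 3 by a median of 0.30.

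Pairs of mice across the labels differed in direction. Over the 75 members with at least 10 CPM, mouse 3 was above control mouse 1 in 64 members (median log2 difference 0.15) but above control mouse 2 in only 10 (median -0.16). Mouse 4 was above control mouse 1 in 74 members (median 0.38) and above control mouse 2 in 66 (median 0.15). Over all genes tested, the shares that were higher in the mouse labelled HuRhKO were between 49.4% and 51.5% in these 4 pairs.

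**Figure D2:**
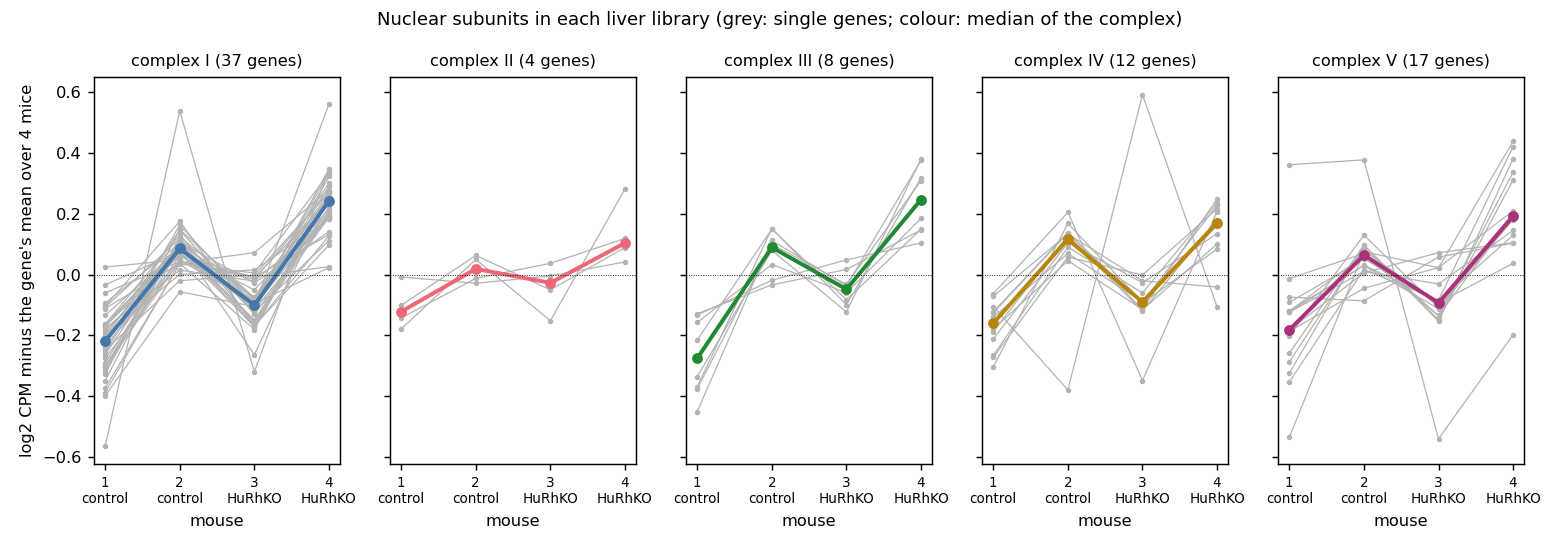
Deviation of the log2 CPM of each tested subunit from its own mean over the 4 mice, by complex, with grey lines joining the values of 1 gene and coloured lines joining the medians; mice 1 and 2 are controls and mice 3 and 4 are labelled HuRhKO. In every complex the median is lowest in mouse 1 and highest in mouse 4, and mouse 2 lies above mouse 3.

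The comparison of the labels asked whether the subunits differ between the control libraries and those labelled HuRhKO. No member passed an adjusted p of 0.05 by edgeR's quasi-likelihood test, where 3 of 13001 genes did (0.0231%), and the smallest adjusted p of a member was 0.633. At an unadjusted p under 0.05 there was 1 member, Atp5s, against 966 genes in all (7.43%). DESeq2 and limma-voom likewise gave 0 members at an adjusted p under 0.05, and 1 member each at an unadjusted p under 0.05, which was Atp5e with DESeq2 and Atp5s with limma-voom. The fitted level was higher in the libraries labelled HuRhKO for 67 of the 78 members and lower for 11, where 50.3% of all genes were higher, and the median log2 fold change of the members was 0.13 against 0.002 over all genes. Both libraries labelled HuRhKO lay above both controls in 10 members (12.8%), against 19.3% of all genes, and below both in 2 members (2.56%), against 18.8%. The members were thus more often on the higher side than genes in general and less often without overlap between the labels, and none of these shares was tested.

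The direction of the set rested on mouse 1 and on mouse 4. Without control mouse 1, 35 of the 78 members were higher and the median log2 fold change was -0.011, and without mouse 4, 32 were higher and the median was -0.022. Without control mouse 2, 75 were higher (median 0.26), and without mouse 3, 74 were higher (median 0.23).

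The intervals limit what the 2 mice in a group could have missed. The SE of the log2 fold change was between 0.126 and 0.499, with a median of 0.165. The 95% interval lay within a log2 fold change of 1 in either direction for 74 of the 78 members, the others being Ndufa4l2, Ndufb4, Cox7a1 and Atp5s. Among the 75 members with at least 10 CPM, no fitted log2 fold change was larger than 0.49. With 2 mice in each group, an exact permutation test cannot give a p below 0.33.

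**Figure D3:**
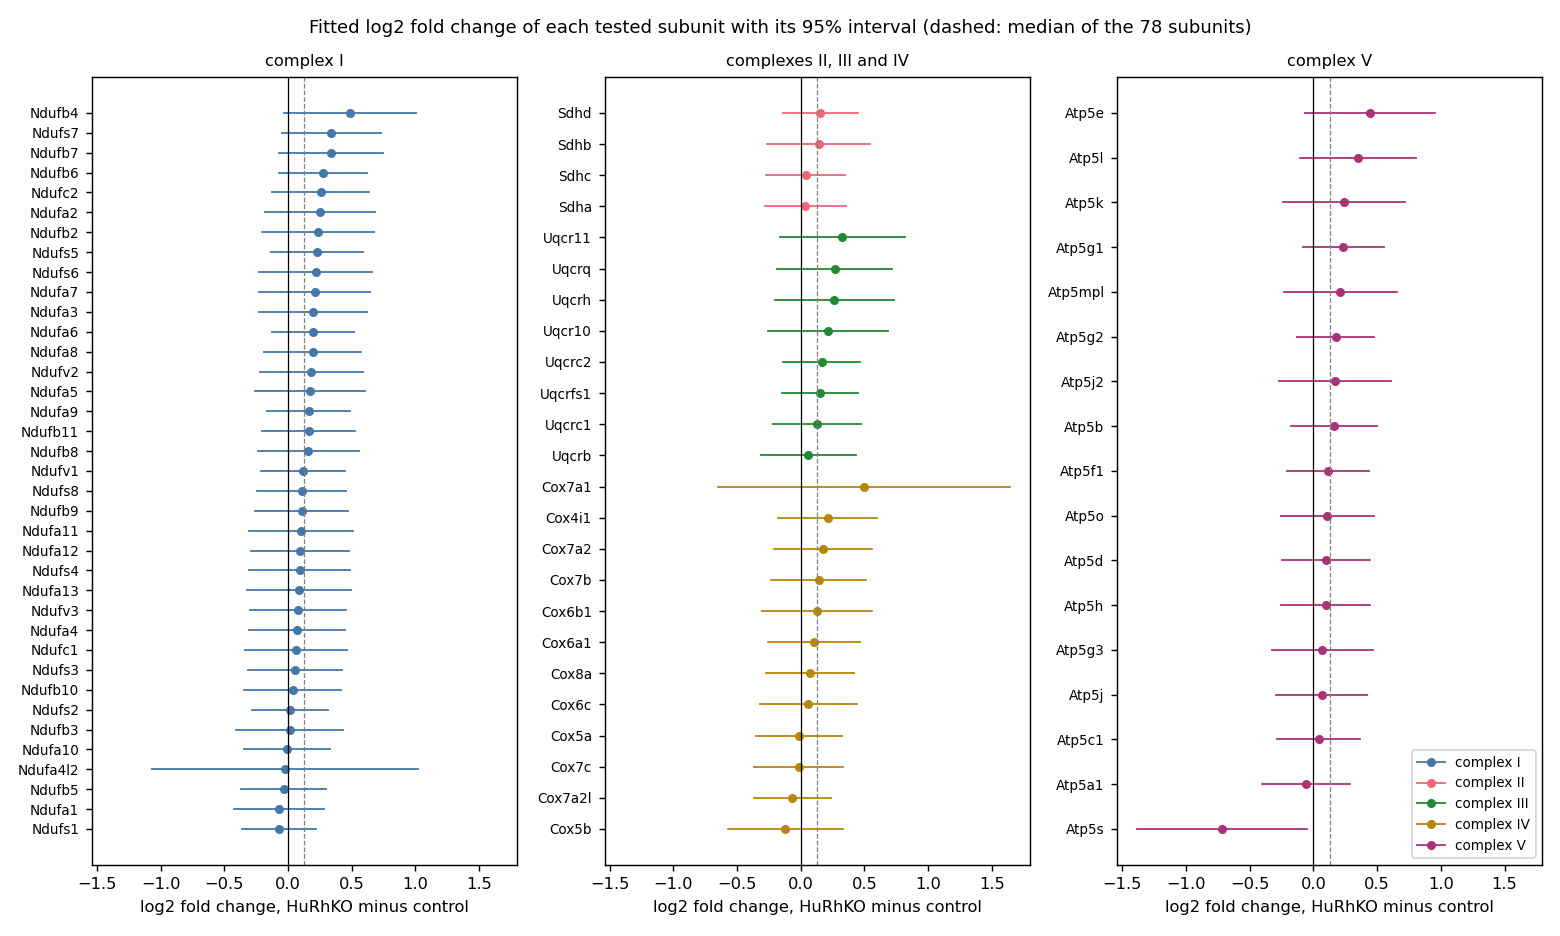
Fitted log2 fold change (libraries labelled HuRhKO minus control) of each of the 78 tested subunits, with bars for the 95% interval from edgeR's quasi-likelihood fit and the median of 0.13 as a dashed line. The bars cross 0 for every member but Atp5s.

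In complex I, 32 of 37 members were higher and 5 lower in the fit. The median log2 fold change was 0.12, with 0 members at an unadjusted p under 0.05. The 7 core subunits encoded in the nucleus, which carry the flavin and the iron-sulfur clusters, had a median of 0.11. The 30 other members by symbol, accessory subunits together with Ndufa4 and Ndufa4l2, had a median of 0.16. Ndufs7, a core subunit that carries the last iron-sulfur cluster before ubiquinone, had 92.6 and 125 CPM in the controls and 128 and 147 CPM in the libraries labelled HuRhKO. Both libraries labelled HuRhKO were above both controls, with mouse 3 just above control mouse 2, and the log2 fold change was 0.34 (SE 0.169, adjusted p = 0.696 by edgeR's test) and lay between 0.13 and 0.57 when each mouse was left out in turn. Ndufb4, an accessory subunit of the membrane arm, had the largest fitted value of the complex, with 25.7 and 32.6 CPM in the controls, 31.5 CPM in mouse 3 and 49.96 CPM in mouse 4. Its log2 fold change of 0.49 (SE 0.225, adjusted p = 0.675 by edgeR's test) was 0.11 without mouse 4, and the labels overlapped. Ndufb4 is uncertain, since a processed pseudogene copy, Ndufb4c, had 354, 498, 551 and 981 counts beside 341, 436, 451 and 941 for Ndufb4 itself.

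The lowest fitted values of complex I were close to 0. Ndufs1, the largest core iron-sulfur subunit, had 119 and 121 CPM in the controls and 109 and 119 CPM in the libraries labelled HuRhKO, with a log2 fold change of -0.072 (95% interval -0.36 to 0.22). Ndufa1, a small accessory subunit needed for assembly, had 67.4 and 81.9 CPM against 64.5 and 77.6 CPM, with a log2 fold change of -0.071 and overlap between the labels. The exons of Ndufs1 overlap those of Eef1b2 on the opposite strand. Ndufa4 had a log2 fold change of 0.071, Ndufb9 of 0.11, Ndufa6 of 0.20 and Ndufa11, a membrane arm subunit, of 0.10, and of these only Ndufa6 had both libraries labelled HuRhKO above both controls.

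Complex II was the steadiest of the complexes. Sdha, the flavoprotein that oxidises succinate, had 534, 527, 536 and 553 CPM in mice 1 to 4, a whole range of 0.070 on the log2 scale and a log2 fold change of 0.037 (95% interval -0.28 to 0.35). Sdhb, the iron-sulfur subunit, had 217, 254, 221 and 298 CPM and followed the common order of the mice, with a log2 fold change of 0.14. The membrane anchors were Sdhc, with 176, 197, 182 and 201 CPM and a log2 fold change of 0.038, and Sdhd, with 153, 167, 173 and 183 CPM and a log2 fold change of 0.15. All 4 were higher in the fit (median 0.09), in Sdha and Sdhd without overlap between the labels, and the adjusted p by edgeR's test was at least 0.835. Of all genes tested, 19.3% were without overlap on the higher side.

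In complex III all 8 members were higher in the fit. The median log2 fold change was 0.19, with 0 members at an unadjusted p under 0.05. Uqcr11, a small subunit at the edge of the complex, had 123 and 181 CPM in the controls and 163 and 218 CPM in the libraries labelled HuRhKO. Its log2 fold change was 0.33 (SE 0.213, adjusted p = 0.768 by edgeR's test), and control mouse 2 was above mouse 3. It lay at 0.060 without control mouse 1, at 0.64 without control mouse 2, at 0.50 without mouse 3 and at 0.11 without mouse 4, and Uqcrq likewise ran from 0.036 to 0.52. Uqcrq, another small subunit, had 308 and 428 CPM against 391 and 495 CPM, with a log2 fold change of 0.27, and Uqcrh, the hinge protein at the cytochrome c1 site, had 92.0 and 123 CPM against 107 and 151 CPM, with a log2 fold change of 0.26. The lowest values were 0.059 for Uqcrb and 0.13 for Uqcrc1, a core protein of the matrix side. The labels overlapped in all of these genes, while Uqcrc2, the other core protein, and Uqcrfs1, the Rieske iron-sulfur protein, were without overlap, with log2 fold changes of 0.16 and 0.15. Members without overlap on the higher side were thus 25% of the complex, against 19.3% of all genes.

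In complex IV, 8 of the 12 members tested were higher in the fit and 4 lower. The log2 fold changes had a median of 0.087, and the labels overlapped in every member. Of all genes tested, 19.3% had both libraries labelled HuRhKO above both controls and 18.8% had both below. Cox4i1 had 461 and 580 CPM in the controls and 557 and 648 CPM in the libraries labelled HuRhKO, with a log2 fold change of 0.21 (SE 0.169, adjusted p = 0.825 by edgeR's test) that ran from 0.042 to 0.38 when each mouse was left out. Cox7a1 had a fitted value of 0.50, but on at most 21 counts and with an interval from -0.65 to 1.65. Cox5b, a subunit that binds zinc, had 163 and 196 CPM in the controls, 134 CPM in mouse 3 and 197 CPM in mouse 4, so that its log2 fold change of -0.12 came from mouse 3. Cox7a2l, which takes part in joining complexes III and IV into supercomplexes, had 93.2 and 107 CPM against 96.6 and 95.2 CPM, with a log2 fold change of -0.065. The isoforms used in liver were between 0.059 and 0.17 for Cox6a1, Cox6b1, Cox6c, Cox7a2, Cox7b and Cox8a.

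In complex V, 15 of 17 members were higher in the fit and 2 lower, and the median log2 fold change was 0.12. Atp5e, the epsilon subunit of the central stalk, had 119 and 182 CPM in the controls and 176 and 234 CPM in the libraries labelled HuRhKO, with control mouse 2 above mouse 3. Its log2 fold change was 0.44 (SE 0.221, adjusted p = 0.695 by edgeR's test), the largest of the complex, and it lay at 0.16 without control mouse 1 and at 0.22 without mouse 4. Atp5l, subunit g of the membrane part, had 107 and 138 CPM against 129 and 183 CPM, with a log2 fold change of 0.35 that ran from 0.072 without mouse 4 to 0.56 without mouse 3. Atp5b, the most abundant of all members by CPM, had 1073 and 1064 CPM in the controls and 1175 and 1213 CPM in the libraries labelled HuRhKO, which was without overlap but amounted to a log2 fold change of 0.16 (95% interval -0.18 to 0.50). Atp5a1 had 1044 and 1105 CPM against 987 and 1081 CPM, with a log2 fold change of -0.056. The alpha and beta mRNAs, whose products alternate in the F1 head, thus had fitted values of opposite sign, both with intervals that include 0. The c subunit genes were at 0.23 for Atp5g1 and 0.17 for Atp5g2, both without overlap between the labels, and at 0.07 for Atp5g3.

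Atp5s was the exception among the members. This gene, long listed as coupling factor B of ATP synthase, had 52, 53, 30 and 50 counts in mice 1 to 4, that is, 3.91 and 3.96 CPM against 2.09 and 2.65 CPM. Both libraries labelled HuRhKO were below both controls, and the log2 fold change was -0.72 (SE 0.291, unadjusted p = 0.0384 and adjusted p = 0.633 by edgeR's quasi-likelihood test), where 3.39% of all genes were lower at this unadjusted threshold. It lay between -0.91 and -0.58 when each mouse was left out in turn. Its unadjusted p was above 0.05 in each of these fits, with DESeq2 (0.119) and without scaling for library size (0.320).

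The common order of the mice went along with transcript length. The members are short, with a median transcript of 732 bases among those tested against 2637 bases over all genes tested. Across the 78 members, Spearman's rho between length and log2 fold change was -0.37, and it was -0.21 across 12955 genes, where genes of the same libraries are not independent. By complex, rho was -0.67 over the 17 genes of complex V, -0.31 over the 37 of complex I and -0.20 over the 12 of complex IV. The deviation of mouse 1 increased with length across the members (rho 0.49) and that of mouse 4 decreased (rho -0.44), with 0.33 and -0.27 across all genes. Within complex IV, rho was 0.070 for mouse 1 and 0.38 for mouse 4, the opposite sign for the latter. Members of up to 600 bases had a median log2 fold change of 0.21 (27 genes), those of 600 to 1000 bases 0.13 (27 genes), those of 1000 to 2000 bases 0.12 (19 genes) and those of 2000 to 4000 bases -0.010 (5 genes). All genes tested in the same classes had medians of 0.14, 0.11, 0.065 and -0.012. The part of length in the pattern of the members was not tested beyond the fit that follows.

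With offsets that remove the trend of each library with transcript length and GC content, 45 members were higher and 33 lower, against 67 and 11 without them, and the median log2 fold change was 0.037. In this fit complex I had 20 members higher and 17 lower, complex IV had 5 and 7, and complex V had 9 and 8. The direction of complex IV on balance was therefore the reverse of that without offsets. In complex III 7 of 8 members were higher, and in complex II all 4.

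**Figure D4:**
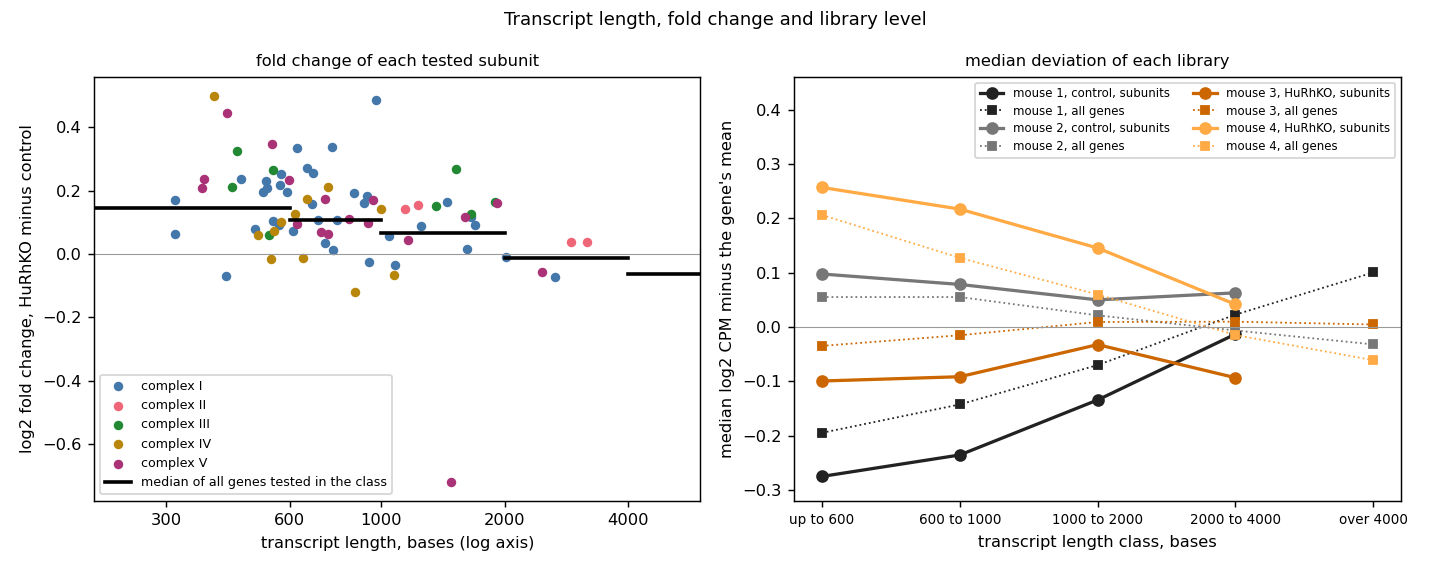
Left, log2 fold change (libraries labelled HuRhKO minus control) of each tested subunit against transcript length on a log axis, with black bars for the medians of all genes tested in each length class. Right, median deviation of the log2 CPM from the gene's mean over the 4 mice by length class for the subunits (solid lines) and all genes tested (dotted lines) in each mouse; mice 1 and 4 stand farthest apart among transcripts of up to 600 bases.

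Promoter sequences of the members are shown because the genes moved together across the mice. RefSeq promoters on GRCm38.p6, each from 250 bases before to 50 bases after a transcription start, were found for 66 members, with 71 entries in all. They were searched on both strands for letters of binding motifs of factors known to act on respiratory genes, which are GCGCA, any base and then GCGC for NRF1, CCGGAAG for the ETS family that includes GABPA, AANATGGCG for YY1 and AAGGTCA for the estrogen-related receptors (ERR). Below are the 150 bases before the start of 4 members, all on the minus strand and written 5′ to 3′ on that strand, with matches in capitals. Atp5e (chr2:174464102-174464251) and Uqcr11 (chr10:80406822-80406971) had the largest log2 fold changes among well-expressed members of complexes V and III, Atp5l (chr9:44920743-44920892) came next in complex V, and Cox6a1 (chr5:115348959-115349108) had a log2 fold change of 0.10.
Atp5e: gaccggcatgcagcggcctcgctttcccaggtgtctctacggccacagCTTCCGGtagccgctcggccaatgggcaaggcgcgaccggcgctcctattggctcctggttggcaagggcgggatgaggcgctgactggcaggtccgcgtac
Uqcr11: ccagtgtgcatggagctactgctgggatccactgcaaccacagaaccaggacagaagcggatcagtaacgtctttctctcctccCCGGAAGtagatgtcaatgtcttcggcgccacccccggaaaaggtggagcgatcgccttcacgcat
Atp5l: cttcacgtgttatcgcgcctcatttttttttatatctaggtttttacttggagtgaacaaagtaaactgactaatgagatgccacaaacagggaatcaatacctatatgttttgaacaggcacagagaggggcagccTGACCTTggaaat
Cox6a1: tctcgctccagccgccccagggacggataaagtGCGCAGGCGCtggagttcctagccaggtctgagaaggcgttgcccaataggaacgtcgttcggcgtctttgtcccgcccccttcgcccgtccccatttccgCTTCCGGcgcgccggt

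The capitals mark the ETS letters in Atp5e, Uqcr11 and, at its 3′ end, Cox6a1, the NRF1 letters in Cox6a1 and the ERR letters in Atp5l, read on either strand. The start used is that of RefSeq. GENCODE exons cover 4 of the printed bases of Atp5e, 9 of Uqcr11, 9 of Atp5l and 23 of Cox6a1. Letters near a 3′ end may therefore lie in transcribed sequence. Over the whole windows, the NRF1 letters were in 18 of the 71 member promoters (25.4%), against 4.6% of the 32851 promoters of all genes. The ETS letters were in 16 (22.5%), against 8.86%, the YY1 letters in 10 (14.1%), against 2.38%, and the ERR letters in 8 (11.3%), against 4.72%. The YY1 letters include an ATG and in 6 of the promoters lay after the transcription start, where they can be the start codon. Matches of different motifs overlapped in 0 member promoters, and 39 (54.9%) held at least 1 of the 4 motifs, against 18.5% of all promoters. The promoters of all genes were not limited to genes expressed in these livers or matched for base composition. These shares therefore do not show an excess particular to respiratory genes.

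The letters of NRF1, the ETS family and YY1 divided the members little by fold change, and those of ERR more, which was not tested. The median log2 fold change was 0.15 for the 17 tested members with NRF1 letters and 0.14 for the 46 without them, 0.15 and 0.14 with and without ETS letters, and 0.16 and 0.13 with and without YY1 letters. It was 0.24 for the 8 members with ERR letters and 0.13 for the other 55. A match of letters is a description and not a binding site.

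HuR binds AU-rich elements, and a smaller share of the members than of genes in general held such letters, in shorter 3′ UTRs. The 3′ UTR of the members had a median length of 152 bases, against 877 bases in protein-coding genes tested. The pentamer ATTTA was in the 3′ UTR of 31 of the 84 members (36.9%), against 63.7% of those genes, and the heptamer TATTTAT in 4 (4.76%), against 25.7%. A shorter 3′ UTR has less room for these letters, and the shares were not adjusted for its length. The median log2 fold change was 0.13 both for the 30 tested members with ATTTA and for the 48 without it.

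The mitochondrially encoded subunits, which join the nuclear ones in complexes I, III, IV and V, did not share their order of mice. These 13 genes summed to 65290, 71053, 57937 and 75166 CPM in mice 1 to 4, so mouse 3 was the lowest, and the ratio of their summed CPM to that of the nuclear members was 5.2, 4.83, 4.28 and 4.69. Of the 13, 6 were higher in the fit and 7 lower. Their median log2 fold change was -0.077, with 0 at an unadjusted p under 0.05 by edgeR's test. Whether the library method treated mitochondrial and nuclear mRNAs alike is not given in the sources used here.

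The factors that assemble the complexes were mixed. Of 50 factors in the fit, 27 were higher and 23 lower (median log2 fold change 0.027), and 4 (8%) had an unadjusted p under 0.05, close to the 7.43% of all genes. Both libraries labelled HuRhKO were above both controls in 20% of the factors and below both in another 20%, against 19.3% and 18.8% of all genes. Cox14 and Pet100, both assembly factors of complex IV, were at 0.49 and 0.62, Atpaf2, a chaperone of the F1 alpha subunit, was at 0.44, and Lyrm7, which helps to insert the Rieske protein into complex III, was at -1.16 on at most 25 counts. Without mouse 4 the value of Pet100 was 0.14, and without control mouse 1 that of Cox14 was 0.30. Each of the 4 factors was without overlap between the labels, and the adjusted p by edgeR's test was between 0.511 and 0.648.

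Ubiquinone synthesis genes, electron carriers and other parts outside the symbol rule made up a list of 18 genes. Among these, Cyc1 of complex III and Ndufab1 of complex I are subunits that the rule left out of the 84 members. Of the 18 genes, 13 were higher and 5 lower (median 0.13). Coq3, a methyltransferase of ubiquinone synthesis (0.40), and Gpd2, the mitochondrial glycerol 3-phosphate dehydrogenase (0.37), had an unadjusted p under 0.05 by edgeR's test. These 2 of 18 genes were 11.1% of the list, against 7.43% of all genes, and Coq3 was at 0.24 in the lowest of the fits without a mouse. Of 14 transcriptional regulators, 9 were higher and 5 lower (median 0.073), and 1 (7.14%, no more than the 7.43% of all genes) had an unadjusted p under 0.05, the fatty acid receptor Ppara, with 66.7 and 64.7 CPM in the controls and 74.5 and 106 CPM in the libraries labelled HuRhKO (log2 fold change 0.46, adjusted p = 0.603 by edgeR's test). Without mouse 4 its log2 fold change was 0.18.

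In the TCA cycle, 10 of 14 genes were higher and 4 lower (median 0.053), and the 2 genes with an unadjusted p under 0.05 (14.3%, against 7.43% of all genes) went opposite ways. Idh2, the mitochondrial NADP-dependent isocitrate dehydrogenase, had 103 and 96.3 CPM in the controls and 150 and 153 CPM in the libraries labelled HuRhKO. Dlst, the succinyltransferase of the oxoglutarate dehydrogenase complex, had 175 and 201 CPM against 120 and 118 CPM. Their log2 fold changes were 0.61 and -0.66 (adjusted p = 0.212 and 0.201 by edgeR's test), larger than that of any well-expressed subunit, and their mice of the same label lay close together. With DESeq2 both had an adjusted p under 0.05 (0.0318 and 0.0132).

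Both lists of ribosomal proteins also had mouse 1 lowest and mouse 4 highest in most genes. Cytosolic ribosomal transcripts were short and abundant like those of the subunits, with medians of 780 bases and 247 CPM per kb. The mitochondrial ribosomal transcripts had medians of 1253 bases and 26.5 CPM per kb. Of 79 cytosolic ribosomal protein genes tested, 71 were higher and 8 lower (median 0.12), with mouse 1 lowest in 62 and mouse 4 highest in 70. Of 78 mitochondrial ribosomal protein genes, 66 were higher and 12 lower (median 0.13), with mouse 1 lowest in 56 and mouse 4 highest in 61. No gene of these lists passed an adjusted p of 0.05 by edgeR's test, and 4 (5.06%) and 8 (10.3%) of them had an unadjusted p under 0.05, against 7.43% of all genes. Over all genes tested, mouse 1 was lowest in 28.1% and mouse 4 highest in 26.6%. The full order of mice 1, 3, 2 and 4 was seen in 49.4% of the cytosolic and 33.3% of the mitochondrial ribosomal genes. It was seen in 62.8% of the subunits and 7.08% of all genes. Both libraries labelled HuRhKO were above both controls in 25.3% of the cytosolic and 35.9% of the mitochondrial ribosomal genes. This share was 12.8% in the subunits and 19.3% over all genes.

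**Figure D5:**
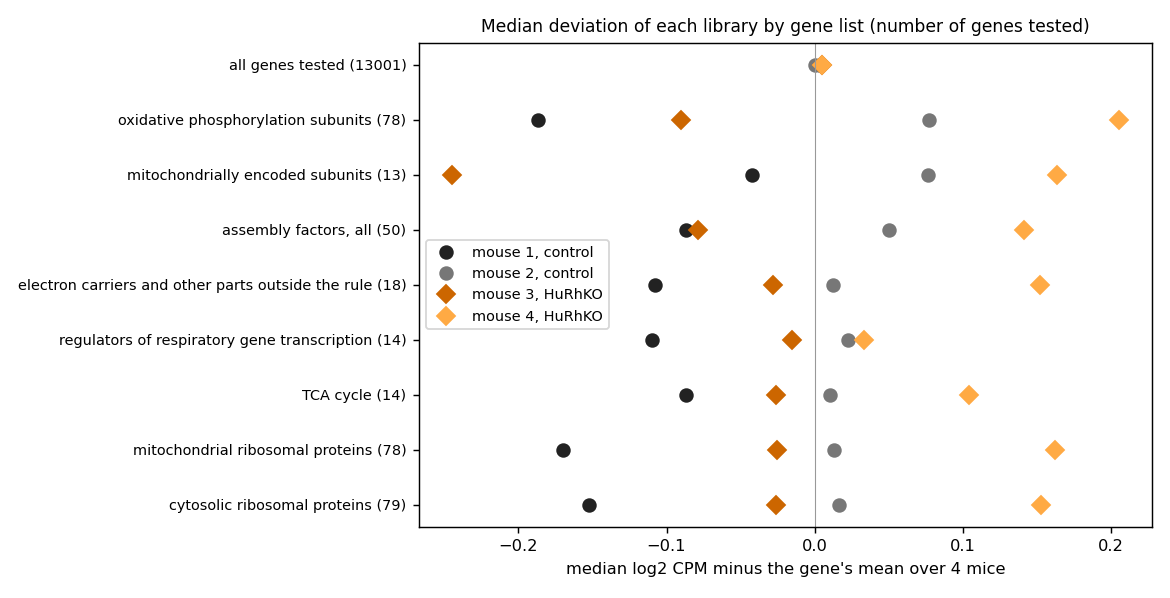
Median deviation of the log2 CPM from the gene's mean over the 4 mice for each gene list, with circles for control mice 1 and 2 and diamonds for mice 3 and 4 labelled HuRhKO; the number of genes tested is in brackets. The nuclear subunits and both ribosomal lists have mouse 1 lowest and mouse 4 highest, whereas the mitochondrially encoded subunits have mouse 3 lowest.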

How the data were processed

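Liver RNA of 2 control mice and 2 mice labelled HuRhKO was sequenced, and the authors deposited whole-number read counts per gene for each mouse, without normalization. The submitters' processing notes name RSEM and the build GRCm38; the aligner, the annotation and the use of strand are not given in the sources used here. The 4 columns carry the mouse numbers of the labels, and 0 columns were left over. Of 46603 identifiers, 46005 were given a symbol; transcript lengths, 3′ UTRs and gene positions are those of GENCODE M21. The members and all lists were chosen with earlier results of these data known. Counts were tested with edgeR 4.0.16 (R 4.3.3), using TMM factors, the default filter (at least 10 counts, total 15), the quasi-likelihood test and Benjamini-Hochberg adjustment over 13001 genes. The script was tested on simulated data. P-values measure the spread between mice whose separate rearing the labels do not describe. Named genes were Elavl1 and, per complex, the 3 highest levels per kb, the 2 highest and 2 lowest log2 fold changes and the smallest p, all of complex II, isoform pairs, members not kept, and genes of the related lists with an unadjusted p under 0.05; others named, such as Ndufs4, Uqcrc2, Uqcrfs1, Ndufb4c and the single marker genes, were chosen after their values were seen. Alternatives were other scalings and filters, DESeq2 1.42.0, limma-voom (limma 3.58.1), offsets for length and GC content (lowess span 0.3, available for 99.6% of genes), other membership, and leaving out each mouse. Tables and figures used python 3.11.15, pandas 2.3.3, numpy 2.4.6, scipy 1.17.1 and matplotlib 3.10.9. Libraries of 13032095 to 19715577 counts, and 29 members whose exons overlap those of another annotated gene, set the precision.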

Additional observations from a re-analysis of the deposited data

How the results depend on the processing

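No paired analysis was possible because the control and HuRhKO mice share no mouse number. No member passed an adjusted p of 0.05 under any alternative run. Leaving out each mouse in turn, with the lone mouse assumed to vary like the other group, gave 0 to 11 members at an unadjusted p under 0.05, 32 to 75 members higher and 3 to 46 lower, and 0 to 45 genes at an adjusted and 571 to 1351 at an unadjusted p under 0.05 over all genes. In complex I, 13 to 36 members were higher and 1 to 24 lower. In complex II, 2 to 4 were higher and 0 to 2 lower (median -0.0097 to 0.17). In complex III, 4 to 8 were higher and 0 to 4 lower. In complex IV, 3 to 12 were higher and 0 to 9 lower, and in complex V, 6 to 15 were higher and 2 to 11 lower. Genes with a log2 fold change on both sides of 0 in these fits were Atp5g3 (-0.099 to 0.24), Cox5b (-0.43 to 0.11), Cox6a1 (-0.061 to 0.27), Cox6b1 (-0.10 to 0.38), Cox6c (-0.10 to 0.23), Cox7a2 (-0.0068 to 0.36), Cox7a2l (-0.18 to 0.041), Cox7b (-0.052 to 0.29), Cox8a (-0.058 to 0.18), Ndufa1 (-0.22 to 0.076), Ndufa11 (-0.13 to 0.28), Ndufa4 (-0.089 to 0.21), Ndufa4l2 (-0.48 to 0.63), Ndufb9 (-0.058 to 0.24), Sdhb (-0.092 to 0.32), Sdhc (-0.054 to 0.12), Uqcrb (-0.12 to 0.25), Uqcrc1 (-0.00058 to 0.23) and Uqcrh (-0.0097 to 0.49).

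Over all genes, the number at an adjusted p under 0.05 was 8 with scaling to total counts alone, 155 without scaling, 161 without a filter, 6 with offsets and 85 with DESeq2, and the number at an unadjusted p under 0.05 was 1466 without a filter and 575 with DESeq2. The latter number lay between these values in the other alternatives that kept all mice. No share of all genes is set beside the counts of members that follow, so these counts do not show an excess. Scaling to total counts alone gave 2 members, 1 of them in complex I, at an unadjusted p under 0.05, and no filter gave 3, of which 1 was in complex I and 2 in complex V. Without scaling for library size the median of all genes moved to 0.31, and values are to be read against it: 1 member was lower, the median of the members was 0.46, and 5 had an unadjusted p under 0.05. Then 0, 0 and 1 members of complexes I, IV and V were lower, the medians of complexes I to V were 0.44, 0.42, 0.52, 0.41 and 0.44, 3 members of complex I and 2 of complex V had p under 0.05, and Atp5a1 (0.27), Cox5b (0.23), Cox7a2l (0.25), Ndufa1 (0.26), Ndufa4l2 (0.32) and Ndufs1 (0.25) were above 0. With offsets, 33 members were lower, 20 were higher and 17 lower in complex I, 1 was lower in complex III, 5 were higher and 7 lower in complex IV, and 9 were higher and 8 lower in complex V, while Atp5g3 (-0.039), Cox6a1 (-0.064), Cox6c (-0.059), Cox8a (-0.10), Ndufa11 (-0.072), Ndufa4 (-0.020), Ndufb9 (-0.042) and Uqcrb (-0.018) were below 0. Ndufa4l2 was at 0.059 with limma-voom. The cause of these shifts was not tested. Other scalings, the stricter filter, DESeq2, limma-voom and the narrower membership otherwise kept the direction of the members and of each complex. With 2 mice a group, a fitted difference was not told apart from 0 at this depth where its interval included 0. This covers differences smaller than the distance from the fitted value to an end of its interval.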
